A study of Mus musculus with 16 samples.

Results

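Serpina3n and 9 genes of astrocytes were followed across the 3 subregions of the mouse dorsal hippocampus, in animals that had or had not learned to avoid a shock zone. The members were chosen by name, as Serpina3n, Gfap, Vim, C4b, Aqp4, Slc1a2, Slc1a3, Aldh1l1, Gja1 and S100b. All 10 were found among the 24972 genes listed for each library, and all 10 passed the filter on low values in every comparison. The animals were ArcCreERT2::eYFPflx mice on a C57BL/6 background, aged 3 to 4 months, in which an Arc-driven, tamoxifen-inducible Cre can switch on eYFP. Trained and untrained animals carried the same alleles. Trained mice received active place avoidance training on a rotating arena with the shock on, and untrained mice ran on the same arena with the shock off. Tissue followed a retention test without shock in both groups. The labels and methods describe each of the 16 bulk RNA-seq libraries as 1 subregion of 1 animal, with 3 animals in each training group. Each subregion gave 3 trained libraries, while untrained animals gave 3 libraries of CA1 and 2 of each other subregion.

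Astrocytes are the glia that clear glutamate and potassium from around synapses, couple to one another through gap junctions and cover blood vessels with end feet. When the brain is injured or inflamed they become reactive, a state in which intermediate filament, acute-phase and complement genes rise. Serpina3n encodes a secreted serine protease inhibitor and is a widely used transcript marker of reactive mouse astrocytes, although oligodendrocytes and neurons can also express it. The other members split by role. Gfap and Vim encode intermediate filaments, C4b a complement component, Slc1a2 and Slc1a3 the glutamate transporters GLT-1 and GLAST, Aqp4 the end-foot water channel, Gja1 the gap junction protein connexin 43, Aldh1l1 a folate enzyme and S100b a calcium-binding protein. In bulk tissue, fewer cells of a type and less RNA per cell cannot be told apart.

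Serpina3n lies on the plus strand of chromosome 12 of GRCm38, from 104406729 to 104414329, and the annotated transcript used for its length has 5 exons. RefSeq (GRCm38.p6) promoter sequence was matched for 8 of the 10 members. A few of them are printed here because Serpina3n varied most between libraries, Gja1 was lower in the comparison of all trained libraries, and Gfap is the other classical reactive gene. Each run holds the 250 bases before the RefSeq start, 5′ to 3′ on the gene's strand. It lies at chr12:104406458-104406707 for Serpina3n, at chr11:102897201-102897450 (minus strand) for Gfap and at chr10:56377050-56377299 for Gja1. Capitals mark matches on either strand to 4 motifs, which are the STAT motif TTCNNNGAA, the AP-1 motif TGANTCA, the CEBP motif TTNNGCAA and the glucocorticoid receptor half-site AGAACA.
Serpina3n: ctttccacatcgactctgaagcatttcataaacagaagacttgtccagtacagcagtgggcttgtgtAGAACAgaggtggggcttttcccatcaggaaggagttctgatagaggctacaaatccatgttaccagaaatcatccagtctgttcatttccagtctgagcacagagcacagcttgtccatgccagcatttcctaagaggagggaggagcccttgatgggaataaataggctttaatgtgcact
Gfap: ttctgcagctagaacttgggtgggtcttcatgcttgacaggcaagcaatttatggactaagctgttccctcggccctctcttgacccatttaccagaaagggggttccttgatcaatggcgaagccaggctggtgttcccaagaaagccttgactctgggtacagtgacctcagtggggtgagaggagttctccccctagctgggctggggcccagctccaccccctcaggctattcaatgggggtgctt
Gja1: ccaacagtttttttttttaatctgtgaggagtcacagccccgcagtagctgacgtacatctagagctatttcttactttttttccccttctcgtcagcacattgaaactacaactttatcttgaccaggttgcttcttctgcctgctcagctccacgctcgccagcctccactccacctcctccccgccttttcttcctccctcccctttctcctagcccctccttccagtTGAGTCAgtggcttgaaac

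The Serpina3n window held 1 half-site and none of the other 3 motifs, the Gja1 window held 1 AP-1 match, and the Gfap window held none of the 4. No match overlapped another in these windows. Over all 27025 promoters of the same length, 16.2% held the half-site, 7.18% the STAT motif, 6.87% the AP-1 motif and 9.55% the CEBP motif. These matches describe letters only.

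Values were deposited by the authors as estimated counts already scaled between libraries. They sum to between 7607326 and 7984931 per library, so the depth behind them is unknown. Per kb of transcript, Slc1a2 had the highest level, with a median over the 16 libraries of 4194 normalized counts per kb. Slc1a3 followed at 985, Gfap at 855, Gja1 at 623 and Serpina3n at 473. S100b (290.5), Aqp4 (278), Aldh1l1 (77.8), Vim (75.1) and C4b (57.3) were lower. The ranges of neighbours in this order overlapped, except that Slc1a2 stood clear of Slc1a3 and Aqp4 stood clear of Aldh1l1.

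**Figure D1:**
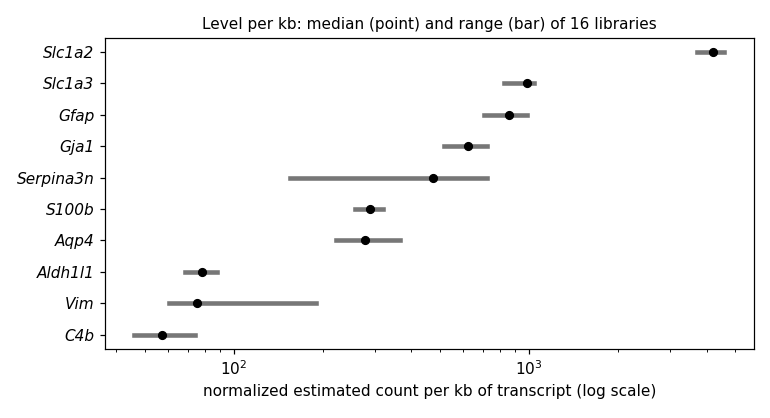
Level of each member in normalized estimated counts per kb of transcript, on a log axis, with the median as a point and the range of the 16 libraries as a bar. The bar of Serpina3n runs from 156 to 720 per kb and that of Slc1a2 from 3718 to 4582.

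Serpina3n was also the member with the widest range, with its highest value 4.63 times its lowest. For Vim this ratio was 3.15, for Aqp4 1.65 and for C4b 1.60, and for the other 6 it lay between 1.23 and 1.40. Within groups of the same subregion and training, the SD of Serpina3n on the log2 scale was 0.313, at the 96.3 percentile of the 10767 genes with a mean value of at least 50. Only Vim, for which 1 library stood apart, had a larger SD among the members (0.392, the 98.4 percentile). Slc1a2, Slc1a3 and S100b had SDs of 0.077, 0.073 and 0.072, between the 11.6 and 14.9 percentiles.

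The subregion labels and the animals were checked before the comparisons. The astrocyte markers checked were 7 of the members themselves, with a summed value of 52620 to 63470, most of it Slc1a2. Markers of the subregions did not separate all labels. The granule cell transcription factor Prox1 had values of 3052 to 3861 in untrained CA1 and of 4118 and 4183 in untrained DG. In trained libraries the order was the reverse, with 3483 to 3618 in CA1 and 3292 to 3367 in DG. Its highest value, 4786, was in CA3 untrained 1. A list of 9 granule markers summed to 9705 to 16680 over all libraries. The CA1 pyramidal markers Wfs1, Fibcd1, Mpped1, Pou3f1 and Man1a summed to 3446 to 5497 in the 3 untrained CA1 libraries, to 1826 to 2312 in the 3 trained CA1 libraries and to 1061 to 2288 elsewhere. None of these list members was at 0 in every library. Libraries are therefore named here by their labels only.

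A second check concerned sex. The study's methods give both sexes in each training group. Xist, transcribed from the inactive X chromosome of females, was 7601 to 19590 in the 9 trained libraries and 25.5 to 52.4 in 6 of the 7 untrained ones. The library labelled CA3 untrained 1 had 10590, unlike CA1 and DG of the same number. The Y-linked gene Ddx3y was 448 to 553 in those 6 untrained libraries, 1.66 to 12.9 in 5 trained libraries and 70.9 to 255 in the other 4. CA3 untrained 1 had a Ddx3y value of 201. High Xist thus stood beside Ddx3y values of 70.9 or more in 5 libraries, each labelled as 1 animal, and the source of this was not tested. The split by Xist was the split by training in CA1 and DG, and in CA3 except for untrained replicate 1. Sex-linked transcripts and training therefore cannot be told apart within CA1 or DG. Over all subregions they can hardly be told apart, since CA3 untrained 1 is the only library where the split by Xist differs from training. Between 3124 and 9759 genes were listed at 0 in a library, with 8323 to 9759 in trained CA1 against 3124 to 5425 in untrained CA1, and 3479 to 5944 in trained DG against 7567 and 8636 in untrained DG.

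In CA1, Serpina3n had values of 557, 321 and 375 in untrained replicates 1 to 3 and of 856, 981 and 968 in trained replicates 1 to 3. Every trained library lay above every untrained one, and the group means of 935 ± 69.1 (SD, n = 3) and 417.5 ± 124 (SD, n = 3) differed 2.24-fold. The log2 fold change, trained minus untrained, was 1.20 (95% confidence interval 0.63 to 1.77), larger than that of 99.4% of the genes tested. It did not pass an adjusted p of 0.05 (limma, adjusted p = 0.0531). The adjusted p lay between 5.04e-06 and 0.168 over the alternatives. It was under 0.05 in 6 of them, namely when no filter was applied, when every library had to reach 10, when the variance was not estimated robustly, when the 16 libraries shared one fit, and without untrained replicate 1 or 2. The fold change was positive in all 15.

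In CA3, Serpina3n was 823 in untrained replicate 1 and 402 in untrained replicate 2, against 971, 1038 and 1200 in the trained libraries. The trained libraries again lay above both untrained ones, but the untrained pair differed from each other by about as much as the groups did. The log2 fold change was 0.89 (95% confidence interval -0.13 to 1.90; limma adjusted p = 0.359). Without untrained replicate 1, the library whose Xist value goes against its number, it was 1.40 (adjusted p = 0.00332), and without untrained replicate 2 it was 0.37 (adjusted p = 0.222). In both cases the lone untrained library is assumed to vary like the trained ones.

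In DG the order was the opposite. Serpina3n was 1487 and 1235 in the untrained libraries and 1191, 1118 and 1200 in the trained libraries. No trained library reached the lower untrained one. The log2 fold change was -0.21 (95% confidence interval -0.39 to -0.04; limma adjusted p = 0.165). Without untrained replicate 1 it was -0.08 (adjusted p = 0.668), and without untrained replicate 3 it was -0.35 and passed (adjusted p = 0.00657), each time with a lone untrained library that is assumed to vary like the trained ones.

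The training effect on Serpina3n was 1.41 larger on the log2 scale in CA1 than in DG (95% confidence interval 0.57 to 2.25). This interaction did not pass the threshold (limma adjusted p = 0.081). It passed without a low-value filter (adjusted p = 0.0455), without robust estimation (0.0239) and without untrained replicate 2 (0.0159). It also passed without untrained replicate 1, but this leaves a lone untrained DG library that is assumed to vary like the other groups. The effect was 1.10 larger in CA3 than in DG (adjusted p = 0.337) and 0.31 larger in CA1 than in CA3 (95% confidence interval -0.53 to 1.15; adjusted p = 0.911).

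Over all subregions the log2 fold change of Serpina3n was 0.67 (95% confidence interval 0.18 to 1.16) and did not pass (limma adjusted p = 0.0804). It was 1.0 without untrained replicate 1 (adjusted p = 0.0528), 0.40 without untrained replicate 2 (0.275) and 0.34 with the CA3 and DG libraries alone (0.548).

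By group mean, Serpina3n was ordered as untrained CA1 (417.5), untrained CA3 (612), trained CA1 (935), trained CA3 (1070), trained DG (1170) and untrained DG (1361). In this order the libraries of untrained CA3 and trained CA1 did not overlap, nor did those of trained and untrained DG, while the other 3 pairs of neighbours overlapped. The mean in DG was 3.26 times that in CA1 among untrained and 1.25 times among trained animals. Tested with training as a term, the log2 difference of CA1 from DG was -0.94 (95% confidence interval -1.53 to -0.36; limma adjusted p = 0.0954). That of CA1 from CA3 was -0.37 (adjusted p = 0.791), and that of CA3 from DG was -0.57 (adjusted p = 0.975).

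**Figure D2:**
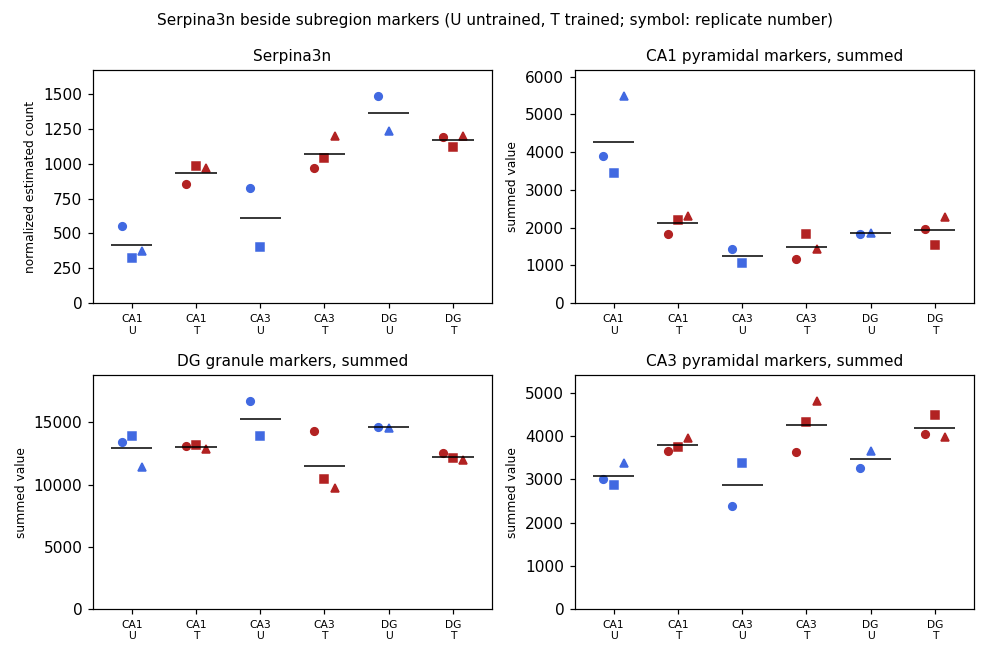
Serpina3n in normalized estimated counts, and the summed values of CA1 pyramidal, DG granule and CA3 pyramidal markers, for each library (blue untrained, red trained, symbol for replicate number, line for the group mean). Serpina3n is lowest in the 3 untrained CA1 libraries and CA3 untrained 2, and the CA1 markers are highest in the 3 untrained CA1 libraries.

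Some marker sums moved with Serpina3n, while others did not or went the other way. The 3 untrained CA1 libraries, where it was at or under 557, were those with a CA1 marker sum of 3446 or more. In CA3 untrained 2, however, where Serpina3n was 402, the CA1 marker sum was 1061, the lowest of the 16. A list of 11 general neuronal markers summed to 92020 to 98590 in untrained CA1 and to 99170 and 100700 in untrained CA3. It summed to 107400 to 112300 in the other 11 libraries, which are those where Serpina3n was 856 or higher. In CA1, 7 of these 11 markers passed the test as higher in trained animals, where 3.53% of all genes did. Oligodendrocyte markers (12 genes) summed to 18020 to 28450 in untrained and 17070 to 18840 in trained CA1, and 9 leptomeningeal markers to 2143 to 2326 and 1149 to 1447. The 12 microglial markers summed to 2582 to 3217 over all libraries, with 2738 to 3217 in untrained and 2761 to 2825 in trained CA1. CA3 pyramidal markers (7 genes) summed to 2863 to 3392 in untrained and 3650 to 3963 in trained CA1, to 2381 and 3376 against 3645 to 4808 in CA3, and to 3277 and 3655 against 3992 to 4495 in DG. Of these 7 genes, 3 were called as higher and 1 as lower in trained CA1, against 3.53% and 1.7% of all genes. Oligodendrocyte precursor markers (7 genes) summed to 1346 and 1384 in untrained and 1609 to 1649 in trained CA3, and progenitor markers (8 genes) to 1453 and 1544 against 1024 to 1338. Over all subregions 5 of the 8 progenitor markers were called as lower, against 4.06% of all genes.

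In DG, where Serpina3n was lower in the trained libraries, several marker sums were lower with it. Granule markers summed to 14560 and 14640 in untrained and 11950 to 12500 in trained DG. Of these 9 markers, 2 were called as lower in DG, where 1.66% of all genes were. Oligodendrocyte markers summed to 17450 and 22260 against 15500 to 16840, progenitor markers to 1431 and 1467 against 1164 to 1303, and endothelial and mural markers to 1772 and 2423 against 1459 to 1580, with 2 of these 12 called as lower. Precursor markers went the other way, with 1468 and 1529 against 1599 to 1688. In CA1 and CA3, where Serpina3n was higher in trained libraries, these sums did not all follow it. Mean progenitor sums were lower in trained CA1 (1237 against 1426) and CA3 (1155 against 1499), and mean granule sums in CA3 (11490 against 15290). Mean granule sums were close in CA1 (13030 against 12910). Endothelial and mural means were higher in trained CA1 (2337 against 2202) and CA3 (2128 against 1914). The part of these cell types in the Serpina3n values was not tested.

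Serpina3 genes form a cluster of near-identical copies, and quantification can divide reads between them. Serpina3m had between 0 and 1.57% of the value of Serpina3n in any library, and the 9 other lettered Serpina3 genes listed had values of at most 9.95. C4a, a near-identical copy of C4b, had 1.91 to 9.47% of the value of C4b.

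**Figure D3:**
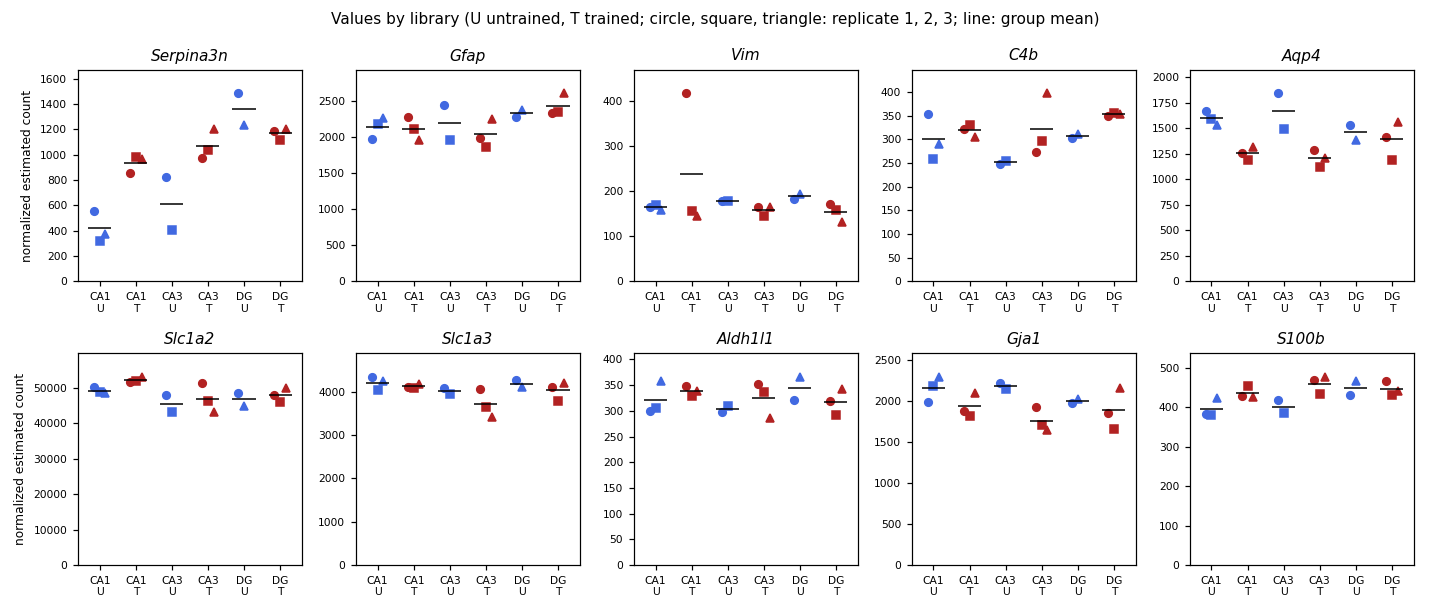
Normalized estimated count of each of the 10 members in the 16 libraries (blue untrained, red trained, symbol for replicate number, line for the group mean, axis from 0). Serpina3n spans 321 to 1487, Aqp4 is lower in trained than in untrained CA1 and CA3, and a single library sets the mean of Vim in trained CA1.

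Few members passed the test between training groups. In CA1, 1 of 10 members was called at an adjusted p under 0.05, where 5.23% of all 13588 genes were. In CA3, 0 of 10 were called, against 0.852% of all genes. In DG, 0 of 10 were called, against 3.39%. In the comparison of all subregions, with subregion as a term, 2 of 10 were called, against 10.3%. At an unadjusted p under 0.05, limma gave 4 of the 10 members in CA1 (18.9% of all genes), 3 in CA3 (15.8%) and 1 in DG (19.5%). Counted instead by groups that do not overlap, 4 of 10 members qualified in CA1 (24.0% of all genes), 6 of 10 in CA3 (33.9%) and 3 of 10 in DG (35.6%). The median log2 fold change of the members was 0.083 in CA1, -0.031 in CA3 and -0.067 in DG, beside medians of 0, -0.006 and 0.001 over all genes.

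The called member in CA1 was Aqp4, which fell. Its values were 1669, 1592 and 1533 in the untrained and 1260, 1190 and 1314 in the trained libraries. The 2 groups did not overlap, and the log2 fold change of -0.35 (95% confidence interval -0.47 to -0.22) passed the test (limma adjusted p = 0.0015). It stayed under the threshold in all 15 alternatives, with an adjusted p of at most 0.0266. None of these separates training from the sex-linked transcripts, which divide the CA1 libraries in the same way. Beside it, the leptomeningeal sum was lower and the sum of 12 endothelial and mural markers slightly higher in trained CA1 (2105 to 2251 against 2298 to 2385). Choroid plexus and ependymal markers summed to 2385 to 2429 in untrained CA1 and to 4346, 994 and 998 in trained replicates 1 to 3. Their part in the Aqp4 values was not tested.

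In CA3, leptomeningeal markers summed to 2264 and 2527 in untrained and 1094 to 1856 in trained libraries. Choroid plexus and ependymal markers summed to 1819 and 2482 against 932 to 1452, with 2 of 9 tested called as lower (0.116% of all genes). Endothelial and mural sums overlapped (1844 and 1984 against 1641 to 2509). Their part in Aqp4 was not tested. Aqp4 was 1845 and 1495 in the untrained and 1292, 1120 and 1212 in the trained CA3 libraries, again without overlap. Its log2 fold change of -0.46 did not pass (limma adjusted p = 0.0678) but did so with all 16 libraries in one fit (0.0142) and without trained replicate 1 (0.0226). Without untrained replicate 1, the library whose Xist value goes against its number, it was -0.31 (adjusted p = 0.448), and without trained replicate 2 it was -0.41 (0.324). In DG, Aqp4 was 1534 and 1390 against 1418, 1192 and 1563, and the groups overlapped (log2 fold change -0.08, limma adjusted p = 0.72). The effect on Aqp4 in CA1 minus that in DG was -0.27 (95% confidence interval -0.55 to 0.01; limma adjusted p = 0.292).

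Over all subregions Aqp4 fell by 0.30 on the log2 scale (limma adjusted p = 0.0051), from 1580 ± 145 (SD, n = 7) in untrained to 1285 ± 135 (SD, n = 9) in trained libraries. With the sex-linked transcripts as a covariate the log2 fold change was -0.37, with an adjusted p of 0.358, and limma then called 0 of all genes, with 1702 at an unadjusted p under 0.05. It lost its call without trained replicate 2 (-0.24, adjusted p = 0.0541), without untrained replicate 1 (-0.23, adjusted p = 0.074) and with the CA3 and DG libraries alone (-0.27, adjusted p = 0.117).

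Gja1, whose protein couples astrocytes into networks, was the other member called over all subregions. It was 1988, 2188 and 2295 in untrained and 1884, 1821 and 2105 in trained CA1, where the groups overlapped. In CA3 it was 2224 and 2148 in the untrained and 1933, 1714 and 1644 in the trained libraries, without overlap. In DG, values of 1977 and 2030 stood against 1858, 1666 and 2156, and trained replicate 3 lay above both untrained libraries.

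The log2 fold change of Gja1 was -0.16 in CA1 (limma adjusted p = 0.192), -0.31 in CA3 (0.117) and -0.09 in DG (0.632). Over all subregions it was -0.18 and passed (limma adjusted p = 0.030). It no longer passed without trained replicate 1 (-0.195, adjusted p = 0.0665) or 2 (-0.13, 0.211), nor without untrained replicate 1 (-0.205, 0.0873), 2 (-0.17, 0.115) or 3 (-0.18, 0.0614). The same held without the library CA3 untrained 1 (-0.16, adjusted p = 0.0896), with the CA3 and DG libraries alone (-0.20, 0.111), with the CA1 markers as a covariate (-0.17, 0.0628) and with the sex-linked covariate (-0.145, 0.736). The log2 fold change was negative in all 20 alternatives. In CA3, Gja1 passed without trained replicate 1 (-0.38, limma adjusted p = 0.0168).

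**Figure D4:**
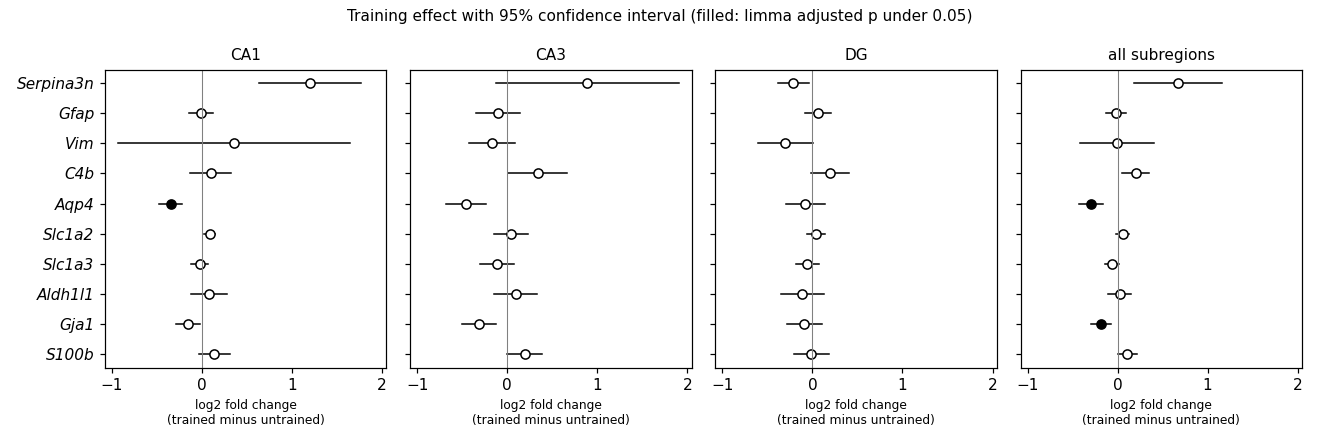
Log2 fold change of each member, trained minus untrained, in CA1, CA3, DG and all subregions, with its 95% confidence interval from limma (filled points have an adjusted p under 0.05). Only Aqp4 in CA1 and Aqp4 and Gja1 over all subregions are filled, and Serpina3n lies farthest to the right in CA1 and CA3 and left of 0 in DG.

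The glutamate transporters varied little between libraries, and neither was called. Slc1a2 was 50200, 48900 and 48520 in untrained and 51660, 51870 and 53130 in trained CA1, so the groups did not overlap, yet the log2 fold change was 0.09 (limma adjusted p = 0.103). It passed only without a low-value filter (adjusted p = 0.0397). In CA3 and DG its log2 fold changes were 0.04 and 0.04, with overlapping groups.

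Slc1a3 ranged from 3428 to 4345 over the 16 libraries. Its log2 fold changes were -0.03, -0.12 and -0.06 in CA1, CA3 and DG (limma adjusted p = 0.799, 0.536 and 0.676). The 95% confidence interval over all subregions was -0.14 to 0.02 for Slc1a3 and -0.01 to 0.13 for Slc1a2.

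The reactive filament genes gave no call. Gfap was 1980, 2183 and 2266 in untrained and 2284, 2111 and 1969 in trained CA1, with a log2 fold change of -0.01 (95% confidence interval -0.15 to 0.12; limma adjusted p = 0.938). Its values were 2445 and 1964 against 1998, 1872 and 2259 in CA3, and 2283 and 2382 against 2343, 2360 and 2615 in DG. The groups overlapped in each subregion, and over all subregions the 95% confidence interval was -0.13 to 0.09.

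Vim was 132 to 194 in 15 libraries and 416 in CA1 trained 1. That library also had the highest value of Ttr, a choroid plexus transcript, at 2008 against 41.1 to 863 elsewhere, and its 10 choroid plexus and ependymal markers summed to 4346 against 932 to 2482. Their part in its Vim value was not tested. Both untrained libraries lay above the 3 trained ones in CA3 (178 and 177 against 164, 145 and 164) and in DG (183 and 194 against 170, 157 and 132). The log2 fold changes were 0.36 in CA1, -0.17 in CA3 and -0.30 in DG (limma adjusted p = 0.766, 0.499 and 0.266). Without CA1 trained 1 the value in CA1 was -0.13 (adjusted p = 0.681), so its direction rests on that library.

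C4b, the complement component, was 353, 258 and 291 in untrained and 321, 330 and 306 in trained CA1, where the groups overlapped. In CA3 it was 248 and 255 against 274, 296 and 398. In DG it was 304 and 311 against 349, 356 and 354, so that all trained libraries lay above the untrained ones in both subregions. The log2 fold changes were 0.10, 0.34 and 0.20 in CA1, CA3 and DG (limma adjusted p = 0.691, 0.306 and 0.292), and 0.20 over all subregions (adjusted p = 0.078). The last of these passed with the share of genes at 0 as a covariate (adjusted p = 0.0378).

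S100b was 384, 381 and 425 in untrained and 428, 454 and 427 in trained CA1, and 418 and 386 against 469, 434 and 477 in CA3. The groups did not overlap in either. In DG, where S100b was 432 and 468 against 467, 430.5 and 441, they did. Its log2 fold changes were 0.14, 0.19 and -0.01 (limma adjusted p = 0.405, 0.322 and 0.963).

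Aldh1l1 ranged from 286 to 366, with overlapping groups in each subregion and log2 fold changes of 0.08, 0.10 and -0.11 in CA1, CA3 and DG (limma adjusted p = 0.707, 0.704 and 0.632).

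Subregions were compared with training as a term. Between CA1 and DG, 0 of 10 members were called, against 1.95% of all genes, and limma gave 3 members at an unadjusted p under 0.05 (Serpina3n, Gfap and Slc1a2), where 17.1% of all genes were. Between CA1 and CA3, 0 of 10 were called, against 0.211%, with 2 members at an unadjusted p under 0.05 (Slc1a2 and Slc1a3) beside 8.72% of all genes. Between CA3 and DG, 0 of 10 were called, and so were 0.0% of all 14673 genes, although limma gave 715 genes (4.87%) at an unadjusted p under 0.05, among them Gfap and C4b. Gfap was lower in CA3 than in DG by a log2 difference of -0.19 (limma adjusted p = 0.945) and in CA1 than in DG by -0.17 (adjusted p = 0.153).

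Between pairs of subregions, the training effect differed for 0 of 10 members in each case. In CA1 minus DG, 2.75% of all genes were called, in CA1 minus CA3 0.0273% and in CA3 minus DG 0.164%. At an unadjusted p under 0.05, limma gave 1 member (Serpina3n) for CA1 minus DG, where 17.8% of all genes were under it. It gave 0 members for CA1 minus CA3 (6.71% of all genes) and 2 (Serpina3n and Aqp4) for CA3 minus DG (11.7%).

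Likeness to Serpina3n was measured as the Pearson correlation over the 16 libraries of log2(value + 2), after the mean of the subregion was subtracted, among 10766 other genes. The libraries share animals, and training and the neuronal marker sum separate them, so the correlations are descriptions. The 5 most like genes were Sdc3 (r = 0.904), Ndufa12 (0.896), Sdk2 (0.888), Chchd10 (0.876) and Kcng3 (0.876). Sdc3 encodes a heparan sulphate proteoglycan, Ndufa12 a subunit of mitochondrial complex I, Sdk2 a synaptic adhesion molecule and Kcng3 a potassium channel subunit. Like Serpina3n, Sdk2 was lowest in untrained CA1 (109, 84.5 and 104 against 183, 155 and 147 in trained CA1).

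None of the other members was among these. S100b ranked 214 (r = 0.705), C4b 1037 (r = 0.523) and Slc1a2 1180 (r = 0.499). Gfap ranked 6257 (r = -0.06), while Aqp4 (r = -0.55) and Gja1 (r = -0.57) lay near the other end, at ranks 10299 and 10384. The genes most like Gfap were Ccdc43 (r = 0.862), Toe1 (0.853), Armc10 (0.82), the small heat shock protein gene Hspb8 (0.805) and the protease inhibitor gene A2m (0.749).

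**Figure D5:**
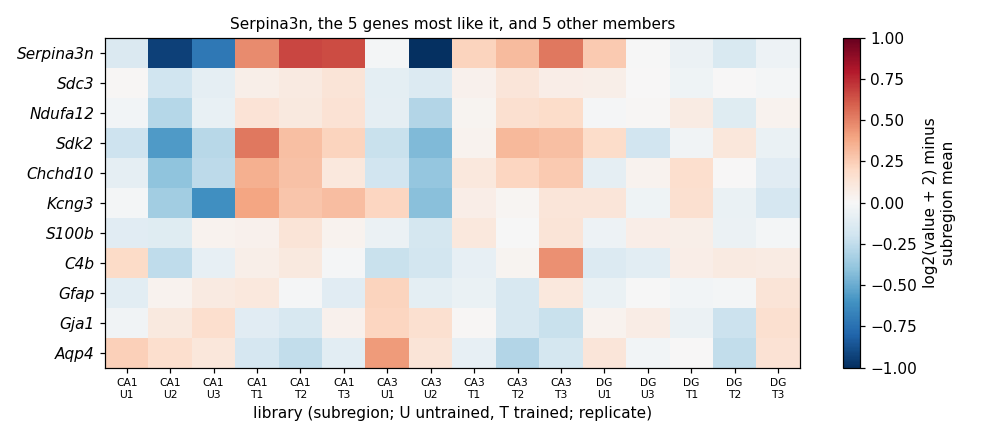
Log2(value + 2) minus the mean of the subregion, as colour, for Serpina3n, the 5 genes most like it and 5 other members in each of the 16 libraries. Serpina3n and the 5 genes below it are low in CA1 and CA3 untrained 2 and high in trained CA1, and the row of Gfap does not follow them (r = -0.06).

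Wider lists place the members among their pathways. The lists hold no member, and their counts stand beside shares of all genes called of 5.23% in CA1, 0.852% in CA3, 3.39% in DG and 10.3% over all subregions. At an unadjusted p under 0.05 these shares were 18.9%, 15.8%, 19.5% and 25.5%. Of 50 homeostatic astrocyte genes, all tested, 1 rose and 2 fell in trained CA1 (15 at an unadjusted p under 0.05), with a median log2 fold change of 0.062 beside 0 over all genes. Prodh, a proline-degrading enzyme, rose by 0.51, and the endothelin receptor gene Ednrb and the fatty acid-binding protein gene Fabp7 had log2 fold changes of -0.39 and -0.53 (limma adjusted p = 0.0362, 0.0204 and 0.0414). In CA3 none of the 50 was called (9 at an unadjusted p under 0.05). In DG, 4 rose and 2 fell (16 at an unadjusted p under 0.05, median -0.044). Fabp7 rose there by 0.84, the cystatin gene Cst3 by 0.38 and the growth factor receptor gene Fgfr3 by 0.36 (limma adjusted p = 0.017, 0.0207 and 0.0304), while Atp1b2 and Sparcl1 had log2 fold changes of -0.38 and -0.26 (0.00686 and 0.017).

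Fabp7, which marks radial glia and immature astrocytes, thus had values of 142, 134 and 114 in untrained and 88.1, 86.7 and 92.2 in trained CA1, but of 70.7 and 75.6 in untrained and 157, 117 and 127 in trained DG. The training effects in CA1 and DG differed by -1.37 (limma adjusted p = 0.00347). Fabp7 was 70.7 to 94.7 in the libraries with 7567 to 9759 genes listed at 0, and 114 to 157 in those with 3124 to 5944. These include CA3 trained 3, where Fabp7 was 118 and 3171 genes were at 0. The part of this library difference was not tested. Over all subregions 4 homeostatic genes rose and 4 fell, among them Prodh (0.44), Fgfr3 (0.29) and Mertk (0.25) on one side and Clu (-0.19), Slc13a3 (-0.44) and Dio2 (-0.17) on the other.

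Of 35 reactive astrocyte genes, 25 were tested in CA1 (5 at an unadjusted p under 0.05), where 1 rose. Ptgs2, which encodes cyclooxygenase 2 and is expressed by neurons in the hippocampus as well, rose by 0.60 (limma adjusted p = 0.00206). Ugt1a1 was also called, as lower, but is not counted here: it had values of 26.0, 43.4 and 17.6 in the untrained libraries, 1.17 in trained replicate 1 and a listed 0 in the other 2, and so passed the filter on low values only through the untrained group. The trained CA1 libraries are also those with more genes listed at 0, as given above, and the part of this was not tested. In CA3 none of 25 was called (1 at an unadjusted p under 0.05), and in DG 1 of 25 rose (4 at an unadjusted p under 0.05), which was Ugt1a1, with 10.6 and 14.0 against 28.2, 41.0 and 28.9. The list's median log2 fold change was -0.11 in CA1, -0.042 in CA3 and 0.244 in DG. Over all subregions 1 of 28 rose (Ptgs2, 0.38) and none fell.

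Complement, serpin and acute-phase genes gave few calls. In CA1, CA3 and DG none of the 17, 18 and 19 complement genes, none of the 10, 10 and 11 serpin genes and none of the 18 acute-phase signalling genes was called. At an unadjusted p under 0.05, limma gave 2, 0 and 4 complement genes, 1, 0 and 1 serpin genes, and 1, 2 and 4 acute-phase genes. Over all subregions it gave 2 of 20 complement, 2 of 13 serpin and 8 of 19 acute-phase genes, of which 1, 1 and 2 were called. The complement protease gene C1ra (1.12), the granzyme B inhibitor gene Serpinb9 (0.47) and the cytokine receptor gene Lifr (0.26) rose, and the interleukin 1 receptor gene Il1r1 fell by 0.34 on the log2 scale (limma adjusted p = 0.0473, 0.0422, 0.00149 and 0.0118). C1ra had values of 0 to 29.1.

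Of 24 glucocorticoid-responsive genes, 22 were tested in CA1, where 3 rose and 1 fell (median log2 fold change 0.162). At an unadjusted p under 0.05, limma gave 13 of 22 in CA1, 9 of 22 in CA3 and 4 of 22 in DG. The metallothionein genes Mt1 and Mt2 rose by 0.88 and 0.76, and Tsc22d3, which encodes the glucocorticoid-induced leucine zipper GILZ, rose by 0.37 (limma adjusted p = 2.7e-05, 7.31e-05 and 0.0345). Nr3c2, the mineralocorticoid receptor gene, had a log2 fold change of -0.24 (adjusted p = 0.017). Mt1 was 472, 510 and 450 in untrained and 1026, 866 and 767 in trained CA1, and in CA3 it rose by 0.97 (limma adjusted p = 0.00552). In DG none was called. Mt1 there was 502 in untrained replicate 1 and 1125 in untrained replicate 3, against 1060, 869 and 879 in trained libraries. Over all subregions 5 of 23 rose, among them Tsc22d3 (0.33), Plin4 (0.82) and Ddit4 (0.33), and 3 fell, which were Klf9 (-0.24), Nr3c2 (-0.18) and the glucocorticoid receptor gene Nr3c1 (-0.16).

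Of 13 intermediate filament and scaffold genes, 12 were tested in CA1, where 4 rose and none fell (7 at an unadjusted p under 0.05, median 0.22). The 3 with the smallest p were the cytolinker gene Plec (0.47) and the neurofilament genes Nefm (0.28) and Nefl (0.20), with limma adjusted p-values of 0.000378, 0.0136 and 0.0157. Neurofilaments are proteins of neurons, not of astrocytes. None was called in CA3 or DG (4 in each at an unadjusted p under 0.05), and over all subregions 5 rose, among them Nefl (0.23), Plec (0.31) and Synm (0.24).

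Between subregions the lists gave few calls. Between CA1 and DG, where 1.95% of all genes were called, 1 of 50 homeostatic genes (the transporter gene Slco1c1, 0.39), 1 of 23 glucocorticoid-responsive genes (the transglutaminase gene Tgm2, 0.58) and 1 of 13 filament genes (Nefl, -0.28) were called (limma adjusted p = 0.0239, 0.0301 and 0.00742). Nefl was also called between CA1 and CA3 (-0.24, limma adjusted p = 0.0371), where 0.211% of all genes were. The heat shock gene Hspb1 was called as higher in CA1 than in DG, but only 1 of the 5 DG libraries reached the minimum of 10, so between these subregions it passed the filter mainly through CA1 and its fold is not given. No other gene of the 7 lists was called between subregions.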

How the data were processed

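Processed bulk RNA-seq files of 16 libraries were used; spatial and RT-qPCR data were not analysed here. RNA was polyA or rRNA-depleted per the labels, which name both. The study's methods name an rRNA depletion kit and also list a step of mRNA enrichment. Per the submitters' notes and methods, reads were demultiplexed (bcl2fastq 2.20), checked (FastQC), trimmed (Trim Galore), aligned (STAR, GRCm38) and quantified (Salmon). The deposited signal is an estimated count that the authors normalized, by a method not given in the sources used here. Counts were not recoverable, so no counting intervals are given.

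log2(value + 2) was tested with limma 3.58.1 in R 4.3.3 (trend, robust, Benjamini-Hochberg over all genes, called under 0.05). Genes needed a value of at least 10 in at least 3 libraries (CA1) or 2 (other comparisons). Subregion or training was a term in comparisons over 16 libraries, which were treated as independent although several come from 1 animal, and interactions came from a fit of 6 groups. The p-values measure the spread between these samples. Scripts were tested on simulated data. Fold changes on this scale understate those of low genes.

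Named genes were the members, up to 3 higher and 3 lower called genes per list and comparison, the 5 genes most like Serpina3n and Gfap with a mean value of at least 50, markers, and sex-linked genes. Members and lists were chosen with earlier results of these data known. Positions and lengths are from GENCODE on GRCm38, promoters from RefSeq. Markers summed were of astrocytes, microglia, oligodendrocytes and their precursors, vessels, leptomeninges, choroid plexus, neurons, the 3 subregions and progenitors. A further CA1 marker is not reported here and entered no sum. Alternatives were other scalings, pseudocounts, filters and variance estimates, 1 fit of all libraries, a replicate block, covariates and each replicate left out.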

Additional observations from a re-analysis of the deposited data

Results flagged for a closer look

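The groups hold 2 or 3 libraries, so single libraries were not tested for standing apart. Training effects were compared between subregions, as log2 fold changes in the first subregion minus those in the second, from the limma fit of 6 groups.

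Serpina3n is given because its groups lay in opposite orders in CA1 and DG. It was higher in every trained than in every untrained CA1 library and lower in every trained than in every untrained DG library. The number of genes listed at 0 lay in the same orders, with 8323 to 9759 in trained and 3124 to 5425 in untrained CA1. In DG it was 3479 to 5944 in trained and 7567 and 8636 in untrained libraries. CA3 trained 3, however, had 3171 genes at 0 beside a Serpina3n value of 1200. The part of this was not tested. The difference of 1.41 did not pass the test (limma adjusted p = 0.081). Over its 14 alternatives the adjusted p lay on both sides of the threshold, and some of these left a lone untrained DG library.

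Of the astrocyte genes named from the lists, Fabp7 differed between CA1 and DG (-1.37, limma adjusted p = 0.00347) and between CA3 and DG (-1.30, adjusted p = 0.0262). Fabp7 was lower in the libraries with more genes listed at 0 (70.7 to 94.7 against 114 to 157). The part of this was not tested, since the share of genes at 0 was not a covariate in any alternative for these interactions. The sodium pump subunit gene Atp1b2 (0.41), the matricellular gene Sparcl1 (0.33) and Etnppl (1.14), which encodes an ethanolamine-phosphate lyase, also differed between CA1 and DG (limma adjusted p = 0.0164, 0.0277 and 0.029).

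Outside the homeostatic list, the microglial complement gene C1qc (-0.71), the heavy neurofilament gene Nefh (0.67) and Cd109 (0.82) differed between CA1 and DG (limma adjusted p = 0.0355, 0.0375 and 0.0379).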

How the results depend on the processing

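Of 1590 values of the members under an alternative, 1482 kept their direction and side of the threshold, 23 came to pass it, 13 ceased to pass and 72, none of them past it, changed sign. In CA1, members called numbered 3 with no low-value filter and 2 when all libraries had to reach 10, without robust estimation or with all 16 libraries in one fit, each time with Serpina3n at 1.197, and 1 to 2 with a replicate left out (Serpina3n 1.027 to 1.423). In CA3 they numbered 1 in the single fit and 0 to 2 with a replicate left out (Serpina3n 0.372 to 1.402), and in DG 0 to 1 (Serpina3n -0.346 to -0.078). Over all subregions they numbered 0 with the sex-linked covariate, 1 without library CA3 untrained 1 and with the CA1 marker covariate, 0 with CA3 and DG only and 0 to 2 with a replicate left out, and Serpina3n (0.668) passed without robust estimation (adjusted p = 0.0199). For CA1 against DG, Serpina3n was the 1 member called without robust estimation (-0.941) and with the share of genes at 0 as a covariate (-1.044). For the training effect in CA1 minus DG, 1 member was called with no filter and without robust estimation, and 0 to 1 with a replicate left out, as in CA3 minus DG. The causes were not tested. The CA1 marker covariate, the animal as a random effect and the CA3 and DG libraries alone were chosen after seeing the data.

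Counts over all genes moved by more than 1.5 times as follows. In CA1, 710 became 1877 with no filter and 339 to 392 without untrained replicate 1 or trained replicate 2. In CA3, 118 became 56 without robust estimation, 413 in the single fit and 7 to 680 with a replicate left out. In DG, 473 became 308 without robust estimation and 28 to 1758 with a replicate left out. Over all subregions, 1517 became 0 with the sex-linked covariate (1702 at an unadjusted p under 0.05), 974 without CA3 untrained 1, 750 with CA3 and DG only, and 438, 554 and 886 without untrained replicate 1, trained replicate 2 and untrained replicate 2. For CA1 against DG, 286 became 439 with the share of genes at 0, 137 with the CA1 marker covariate and 17 to 170 without 5 of the 6 replicates. For the effect in CA1 minus DG, 404 became 2039 with no filter, 200 when all libraries had to reach 10 and 24 to 448 with a replicate left out. The smaller counts, 31 for CA1 against CA3, 0 for CA3 against DG, 4 for CA1 minus CA3 and 24 for CA3 minus DG, ranged from 2 to 86, 0 to 1, 0 to 69 and 0 to 72. With no filter the median of all genes shifted to -0.125 in CA1 and 0.119 in DG.

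Same-numbered libraries did not deviate together. Those of one training group in other subregions correlated at -0.108 to 0.092 (14 pairs), and those of a subregion across training at -0.18 to 0.119 (7 pairs), so the number was not taken to pair them. With the replicate number as a block, CA3 had 2 members called (Aqp4 and Gja1) and 1160 genes, and no other call of a member changed. In that CA3 fit the block takes up trained replicate 3 and leaves little from which to estimate the spread. Its log2 fold changes (Aqp4 -0.464, Gja1 -0.263) equal those without trained replicate 3, where neither passed (limma adjusted p = 0.11 and 0.223).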
